A study of Mus musculus with 10 samples.

Results

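Olig1, Olig2, Nkx2-2, Pdgfra and Cspg4 are the genes by which oligodendrocyte precursor cells, the dividing cells that give rise to myelinating oligodendrocytes, are usually recognised. They were chosen by name, as 5 of the 17919 genes in the deposited tables, and all 5 had a value in each of the 6 RNA-seq and polysome libraries. Neural stem cells were taken from ICR mice at embryonic day 10, from the ventral midbrain, transduced with a lentivirus expressing the RNA-binding protein gene Lin28a or with a mock control virus, and passaged every 4 days. The groups were P3 Lin28a, P3 control, P1 Lin28a and P1 control in RNA-seq (P3 and P1 are passages 3 and 1), the same 4 in small RNA sequencing, and P3 Lin28a and P3 control in polysome sequencing. Each group was 1 library, so the 10 libraries allow no test and no SD, and every difference below describes these libraries only. The labels name no promoter for the transgene and do not say how many embryos were pooled, and mock-transduced cells of the same strain are the sole comparison.

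Olig1 and Olig2 are basic helix-loop-helix transcription factors. Olig2 is required to specify the precursors in the ventral neural tube, where it also marks motor neuron progenitors, and Olig1 acts in their later maturation. Nkx2-2 is a homeobox factor of the most ventral progenitors, induced there by Sonic hedgehog, and in mouse it helps precursors to start differentiation by repressing Pdgfra. Pdgfra is the receptor through which the ligand PDGF-A keeps precursors dividing, and Cspg4 encodes their surface proteoglycan NG2, which pericytes also carry. In mouse, Pdgfra and Cspg4 are lost as precursors mature into myelinating cells, while Olig1 and Olig2 persist.

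The Lin28a transcript followed the labels. It was at 104 FPKM in P3 Lin28a and 478 FPKM in P1 Lin28a, against 0.0620 FPKM in P3 control and 0.128 FPKM in P1 control. The neural stem cell genes Sox2, Nes and Vim were at 38.6 FPKM or more in all 4 RNA-seq libraries. Nes was at 53.0 and 38.6 FPKM in P3 Lin28a and control, against 93.9 and 88.2 FPKM in P1 Lin28a and control. Sox2 and Vim were higher at P3 than at P1 in both cultures. The midbrain genes Otx2, En1 and Lmx1a were present in all 4 libraries and lower at P3. Otx2 was at 38.7 FPKM with Lin28a and 30.3 FPKM with control at P3, against 72.9 FPKM with Lin28a and 65.0 FPKM with control at P1. En1 was at 8.83 FPKM with Lin28a and 5.83 FPKM with control at P3, against 21.5 FPKM with Lin28a and 24.5 FPKM with control at P1. Lmx1a was at 14.2 FPKM with Lin28a and 4.61 FPKM with control at P3, against 31.5 FPKM with Lin28a and 30.4 FPKM with control at P1. FPKM is a fragment number scaled to transcript length and library size, and RPKM is the like unit for reads. The RNA-seq libraries each had 12338 to 12461 genes at 1 FPKM or more, and the polysome libraries had 12098 with Lin28a and 12028 with control at 1 RPKM or more. How deeply these libraries were sequenced is unknown, since their values carry no counts.

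All 5 genes were higher at P3 than at P1 in both cultures, and 4 of them past 2-fold, as were 8.38% of all tested genes in the Lin28a culture and 11.5% in control. All 5 were also lower with Lin28a than with control in RNA-seq at both passages, mostly by less than 2-fold, where 51.5% of tested genes at P3 and 51.6% at P1 were lower by any amount. In polysome RNA at P3, 4 of the 5 were lower with Lin28a, beside 37.2% of tested genes, and Nkx2-2 was slightly higher. The genes fell into a pair of high factors, Olig1 and Olig2, a steadier factor, Nkx2-2, and 2 surface genes, Pdgfra and Cspg4, that were under 3 FPKM at P1 and above 11 FPKM at P3.

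**Figure D1:**
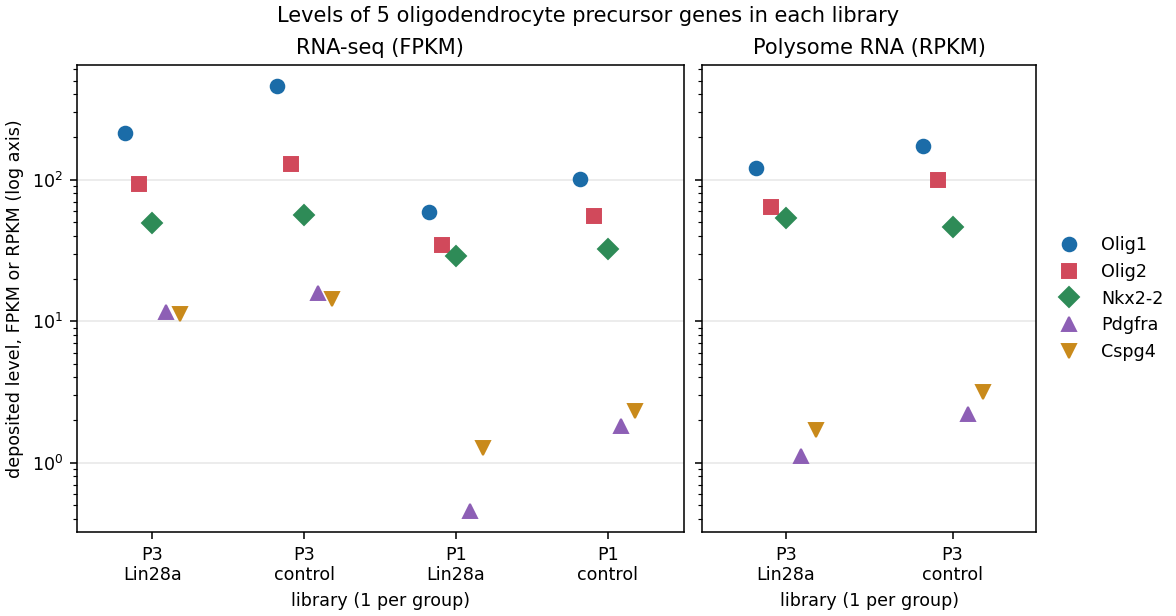
Deposited level of each of the 5 genes on a log axis in the 4 RNA-seq libraries (FPKM, left) and the 2 polysome libraries (RPKM, right), each point being 1 library. Olig1 is the highest of the 5 in all 6 libraries, and Pdgfra and Cspg4 are the lowest, standing above 11 FPKM in both P3 RNA-seq libraries and under 4 in the other libraries.

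Among the transcription factors, Olig1 (NM_016968) had the highest level of the 5 genes in each library. It was at 213 FPKM with Lin28a and 456 FPKM with control at P3, and 59.1 FPKM with Lin28a and 101 FPKM with control at P1. The P3 control value ranked 184 from the top of all 17919 genes, and the P1 Lin28a value ranked 1408. Both P3 libraries therefore stood above both P1 libraries, and at each passage the Lin28a library stood below its control.

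Olig2 (NM_016967) followed the same order at lower levels. It was at 93.3 FPKM with Lin28a and 130 FPKM with control at P3, and 34.4 FPKM with Lin28a and 55.7 FPKM with control at P1. Olig1 and Olig2 lie side by side on chromosome 16, with 0 protein-coding genes between them in the RefSeq annotation of GRCm38. The level of Olig1 was 2.28 times that of Olig2 with Lin28a and 3.52 times with control at P3, and 1.72 times with Lin28a and 1.81 times with control at P1, so the pair was closest to equal at P1 and furthest apart in P3 control.

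Nkx2-2 (NM_001077632) varied least. It was at 49.0 FPKM with Lin28a and 56.1 FPKM with control at P3, and 28.8 FPKM with Lin28a and 32.5 FPKM with control at P1. The antisense gene Nkx2-2os overlaps Nkx2-2, and the use of strand in counting is not stated, but Nkx2-2os was listed at 0.198 or less in all 6 libraries. Olig2 was 1.91 times as high as Nkx2-2 with Lin28a and 2.31 times with control at P3, and 1.20 times with Lin28a and 1.71 times with control at P1.

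The surface genes showed the widest range. Pdgfra (NM_011058) was at 11.6 FPKM with Lin28a and 15.9 FPKM with control at P3, and 0.458 FPKM with Lin28a and 1.81 FPKM with control at P1. Cspg4 (NM_139001) was at 11.2 FPKM with Lin28a and 14.3 FPKM with control at P3, and 1.27 FPKM with Lin28a and 2.31 FPKM with control at P1. Pdgfra was close to Cspg4 at P3, at 1.03 and 1.10 times its level in Lin28a and control, and below it at P1, at 0.361 and 0.784 times its level in Lin28a and control. The order of the 5 genes was thus the same in every RNA-seq library except for this last pair, which was nearly equal at P3.

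Promoter sequence was available from RefSeq (GRCm38.p6) for 4 of the 5 genes, as the 250 bases before and 50 bases after 1 annotated start. The 3 shown were picked for holding at least 1 of the motifs searched, and not by their passage ratios. They are written 5′ to 3′ with motif letters in capitals. The motifs were the helix-loop-helix E-box CANNTG, the core of the Gli site CCACCCA and the NK2 homeobox site TNAAGTG, on both strands.
Olig2, chr16:91225300-91225599, plus strand: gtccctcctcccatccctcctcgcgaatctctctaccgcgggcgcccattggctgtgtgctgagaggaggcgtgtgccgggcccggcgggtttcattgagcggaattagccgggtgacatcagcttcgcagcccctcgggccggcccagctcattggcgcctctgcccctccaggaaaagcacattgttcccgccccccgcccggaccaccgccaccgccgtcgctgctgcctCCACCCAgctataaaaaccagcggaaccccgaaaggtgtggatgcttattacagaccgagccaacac
Nkx2-2, chr2:147186353-147186652, minus strand: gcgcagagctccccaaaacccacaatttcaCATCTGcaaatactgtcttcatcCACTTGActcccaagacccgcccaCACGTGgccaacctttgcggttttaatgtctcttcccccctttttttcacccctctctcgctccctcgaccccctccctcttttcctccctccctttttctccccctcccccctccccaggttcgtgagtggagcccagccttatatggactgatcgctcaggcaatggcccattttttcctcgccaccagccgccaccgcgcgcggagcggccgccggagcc
Pdgfra, chr5:75152001-75152300, plus strand: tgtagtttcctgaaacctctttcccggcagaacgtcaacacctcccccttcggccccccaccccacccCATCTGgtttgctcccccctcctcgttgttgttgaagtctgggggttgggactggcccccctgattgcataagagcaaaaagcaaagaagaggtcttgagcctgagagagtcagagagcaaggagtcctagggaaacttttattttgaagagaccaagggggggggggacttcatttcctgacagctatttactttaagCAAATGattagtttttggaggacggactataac

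The Olig2 window held 1 Gli core, which starts 17 bases before the annotated start, and no other motif. The Nkx2-2 window held 3 E-boxes, of which the one at 197 bases before the start overlaps its 1 NK2 site. Pdgfra held 2 E-boxes, and the Cspg4 window held 0 of the 3 motifs. Of all 32851 promoter windows, 72.3% held an E-box, 9.30% the Gli core and 11.5% the NK2 site, so these matches are a description of the letters alone. The G and C content was 65% for Olig2, 59.7% for Nkx2-2, 51% for Pdgfra and 60% for Cspg4, and the median of all windows was 52.7%.

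How the 5 genes differed with time in culture was read from P3 against P1 within each culture, as log2 ratios of the level plus a pseudocount of 1. In the Lin28a culture, all 5 were higher and 4 past 2-fold, where of the 12850 genes tested 49% were higher by any amount, 8.38% higher past 2-fold and 4.8% lower past 2-fold. In the control culture, again all 5 were higher and 4 past 2-fold, where of 13011 genes 49.7% were higher by any amount, 11.5% higher past 2-fold and 8.14% lower past 2-fold. The 4 genes were Olig1, Olig2, Pdgfra and Cspg4 both times. Of 12723 genes tested in both cultures, 7.35% were higher past 2-fold in both. The passage comparisons share no library but are not known to be independent, since the labels give no replicate numbers. The median log2 ratio of the 5 was 1.83 in the Lin28a culture and 2.16 in control, beside -0.01 and -0.00 over all tested genes.

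With the pseudocount of 1, Pdgfra had the largest passage ratio of the 5, 3.11 in the Lin28a culture and 2.59 in control on the log2 scale, and 58 and 170 of the tested genes stood higher. Without a pseudocount its deposited value was 25.3 times as high at P3 as at P1 in Lin28a and 8.77 times in control. Cspg4 had 2.43 in Lin28a and 2.21 in control. Both surface genes have low P1 values, so their ratios and their place among the 5 depend on the pseudocount. With 0.1, Pdgfra had 4.39 in Lin28a and 3.06 in control and Cspg4 3.05 and 2.58. With 5, Pdgfra had 1.60 and 1.61 and Cspg4 1.37 and 1.40, below Olig1 at 1.76 in Lin28a and 2.12 in control.

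Olig1 had a ratio of 1.83 in the Lin28a culture and 2.16 in control, and Olig2 of 1.41 in Lin28a and 1.20 in control. For Nkx2-2 the ratio was 0.75 in Lin28a and 0.77 in control, under 2-fold each time, with 86.8% and 83.2% of all tested genes below it. Nkx2-2 had the smallest passage ratio of the 5 in both cultures with each of the 3 pseudocounts. The difference between the 2 passage ratios, Lin28a minus control, was 0.52 for Pdgfra, 0.22 for Cspg4, 0.21 for Olig2 and -0.33 for Olig1, none past 2-fold, and -0.02 for Nkx2-2, whose sign turned with upper quartile scaling (0.02). Of all 13138 genes in that comparison, 1.55% were higher and 0.898% lower past 2-fold, and with a pseudocount of 0.1 Pdgfra stood past 2-fold at 1.32. With a pseudocount of 5 the difference was -0.01 for Pdgfra and -0.03 for Cspg4, so the sign of both turned, while Olig2 (0.17) and Olig1 (-0.36) kept theirs.

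**Figure D2:**
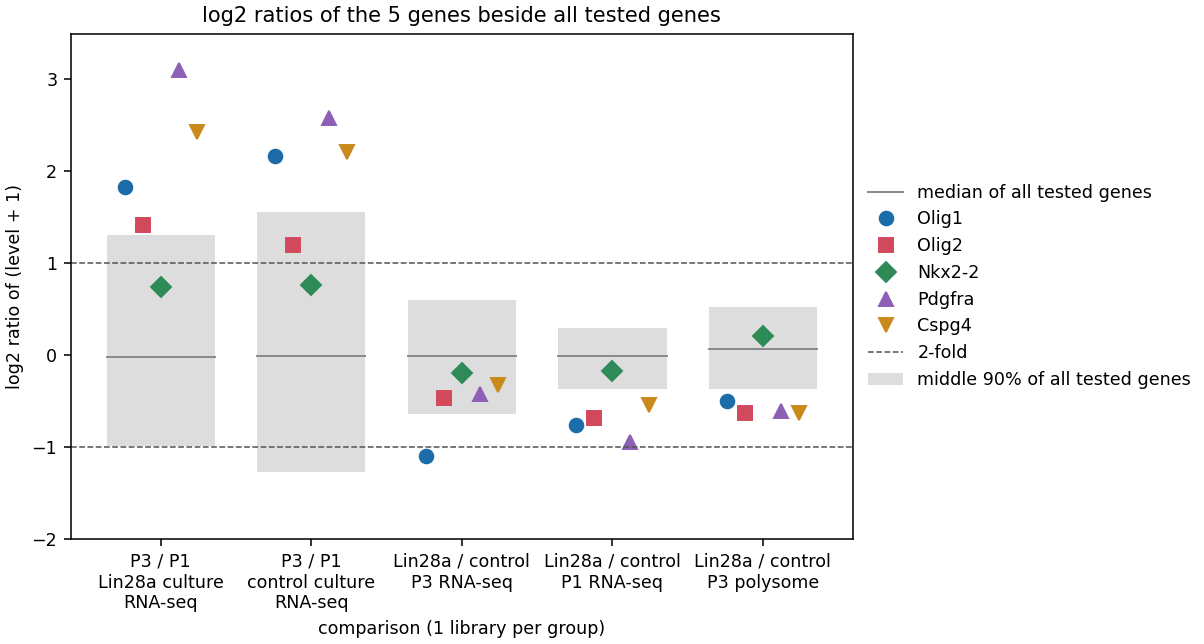
log2 ratio of level plus 1 for each of the 5 genes in 5 comparisons, each between single libraries, beside the middle 90% (grey) and the median (line) of all tested genes, with dashed lines at 2-fold. With the pseudocount of 1 the passage ratios reach 3.11 for Pdgfra while Nkx2-2 stays at 0.75 and 0.77, and the Lin28a to control ratios lie between -1.10 and 0.21.

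Other genes of the lineage were described from lists of precursor, ligand and marker genes, with fold and background as above. Of 15 transcription factors that promote or brake the precursor state, 7 were higher and 2 lower past 2-fold at P3 in the Lin28a culture (median 0.62), and 6 higher and 3 lower in control (median 0.48). Sox10, which maintains the lineage and activates myelin genes, was at 54.6 FPKM with Lin28a and 74.8 FPKM with control at P3, against 0.173 FPKM with Lin28a and 1.04 FPKM with control at P1. Its partner Sox8 had log2 ratios of 3.41 in Lin28a and 3.17 in control, and the Notch effector Hes5, a brake on differentiation, had 2.21 and 1.89. Nkx6-1, a ventral progenitor factor, went the other way, at -1.52 in Lin28a and -2.09 in control.

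Of 13 surface and matrix genes expressed by precursors, 9 of the 11 measured in the Lin28a culture and 9 of the 13 in control were higher past 2-fold at P3, and 1 was lower each time. Gpr17, a receptor of precursors that are about to differentiate, had log2 ratios of 5.67 in Lin28a and 6.09 in control. The matrix genes Matn4 (4.30 in Lin28a, 4.31 in control), Tnr (3.62 and 3.30) and Bcan (2.18 and 2.64) were also higher. Of 17 genes of myelin and differentiating oligodendrocytes, 12 of 13 measured in Lin28a and 12 of 14 in control were higher past 2-fold, with medians of 4.12 and 4.17. Their summed level was 1092 FPKM with Lin28a and 1681 FPKM with control at P3, against 33.6 FPKM with Lin28a and 42.3 FPKM with control at P1, a wider gap than for the 5 precursor genes, which summed to 378, 672, 124 and 193 FPKM in the same order.

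The genes of ligands and inducers differed in direction. Pdgfa, which encodes the ligand of Pdgfra in precursors, was at 19.8 FPKM with Lin28a and 22.4 FPKM with control at P3, against 8.49 FPKM with Lin28a and 9.04 FPKM with control at P1, past 2-fold in both cultures. The receptor gene Pdgfrb, which mural cells use, had log2 ratios of -0.99 in Lin28a and -1.83 in control, and Pdgfc -0.54 and -0.59. Of 8 Hedgehog pathway genes, 4 in Lin28a and 5 in control were lower past 2-fold at P3 and 0 were higher. Shh, the ligand that induces Olig2 and Nkx2-2 in the ventral neural tube, was at 6.24 FPKM with Lin28a and 2.64 FPKM with control at P3, against 45.3 FPKM with Lin28a and 50.6 FPKM with control at P1. The Hedgehog readout Gli1 was lower too, at -1.61 in Lin28a and -2.39 in control. Of 8 genes of ventral progenitors and their neurons 4 were measured, and these, Foxa2, Isl1, Sim1 and Nkx2-9, were lower past 2-fold at P3 in both cultures, with a median of -1.71 in Lin28a and -2.53 in control.

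**Figure D3:**
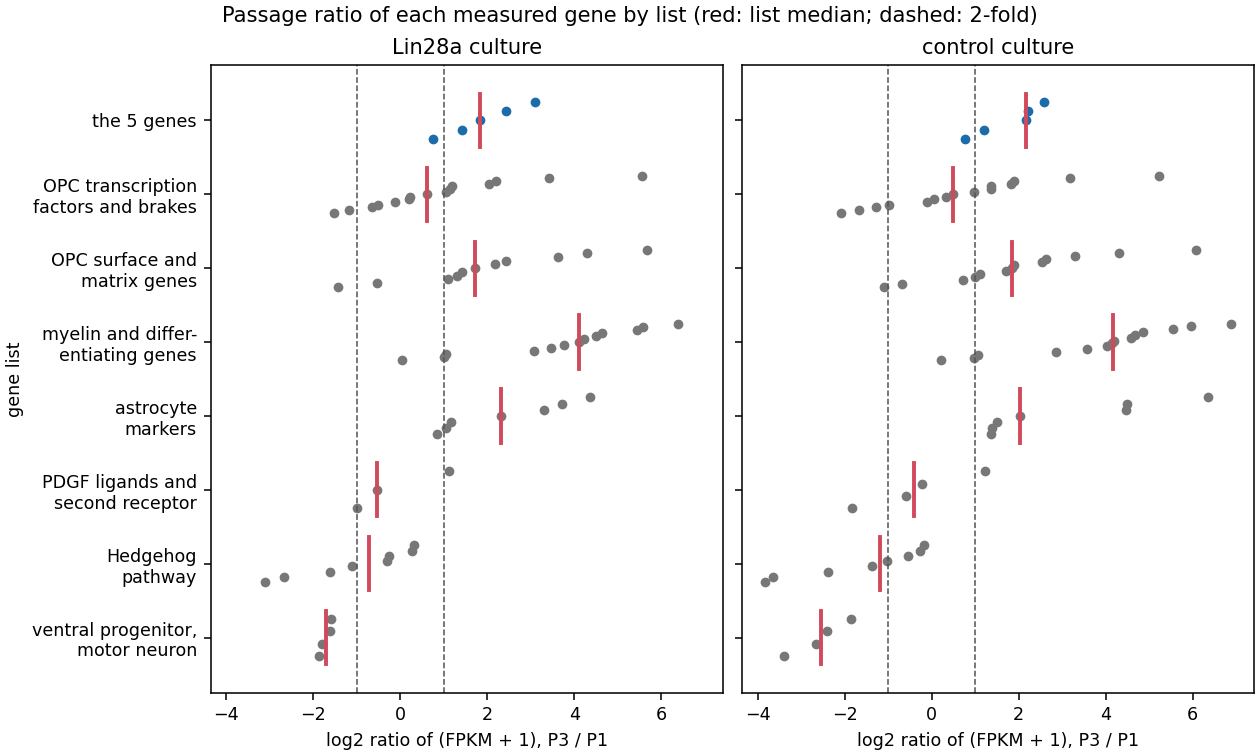
Passage ratio, P3 over P1, as log2 of FPKM plus 1, for each measured gene (points) of the 5 precursor genes and 7 other lists, in the Lin28a culture (left) and the control culture (right), with list medians in red and 2-fold dashed. The 5 genes have medians of 1.83 and 2.16, astrocyte markers have similar ones (2.31 and 2.03), and myelin genes lie higher (4.12 and 4.17). The Hedgehog and the ventral progenitor genes have medians below 0 in both cultures.

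Markers of other cell types were higher or lower with passage by type. Of 7 astrocyte markers, 6 in Lin28a and 7 in control were higher past 2-fold at P3, their summed level being 719 and 1179 FPKM in P3 Lin28a and control against 212 and 283 FPKM in P1 Lin28a and control. Pericytes also express Cspg4, and of 10 mural markers Kcnj8, Abcc9, Des and Myh11 were under 1 in all 6 libraries. Acta2 (1.36 in Lin28a, 2.48 in control) and Tagln, of contractile filaments, were higher past 2-fold at P3. Notch3 was at 66.4 and 70.0 FPKM in P3 Lin28a and control, against 37.8 and 38.5 FPKM in P1 Lin28a and control. Anpep was at 1.21 and 1.03 FPKM in P3 Lin28a and control, against 0.692 and 0.875 FPKM in P1 Lin28a and control. Vtn was lower past 2-fold in control (-1.12) and stood at 0.53 in Lin28a, and the pericyte marker Rgs5 was at 0.516 FPKM or less in RNA-seq and at 1.90 RPKM with Lin28a and 1.36 RPKM with control in polysome RNA. The mural list summed to 334 FPKM with Lin28a and 492 FPKM with control at P3, against 122 FPKM with Lin28a and 129 FPKM with control at P1. Fibroblasts also express Pdgfra, and of 7 measured fibroblast markers 4 were lower and 1 higher past 2-fold in each culture, with Twist2 under 1 throughout and a summed level of 36.6 and 30.8 FPKM in P3 Lin28a and control against 53.5 and 62.7 FPKM in P1 Lin28a and control. All 7 microglia markers, 5 of 6 Schwann cell and neural crest markers and 4 of 6 endothelial markers in the files were under 1 in all 6 libraries. The part of astrocyte, mural and fibroblast genes in the ratios of the 5 genes was not tested. In bulk RNA a different number of precursor cells and a different amount of RNA per cell cannot be told apart, for passage or for virus.

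The difference between the Lin28a and control cultures in the 5 genes was read at each passage. With 1 library per group, the virus cannot be told apart from other differences between the cultures. At P3, all 5 were lower in Lin28a than in control and 1 of them, Olig1, past 2-fold, where of 12716 genes 51.5% were lower and 48.5% higher by any amount, and 1.34% lower and 1.31% higher past 2-fold. At P1, again all 5 were lower and 0 past 2-fold, where of 12564 genes 51.6% were lower by any amount and 0.0955% past 2-fold. Lower by any amount at both passages were all 5 genes and 32.2% of 12142 genes tested at both. The median log2 ratio of the 5 was -0.42 at P3 and -0.68 at P1, beside -0.01 over all tested genes at each passage.

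Olig1 stood at 0.467 times its control level at P3 and 0.585 times at P1, log2 ratios of -1.10 and -0.76, and 117 and 38 of the tested genes were lower still. Olig2 had log2 ratios of -0.47 at P3 and -0.68 at P1, so the larger shortfall of Olig1 was at P3 and that of Olig2 at P1. Nkx2-2 was nearest to its control, at 0.873 times the control level at P3 and 0.885 times at P1.

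Pdgfra had a log2 ratio of -0.42 at P3 and -0.95 at P1, where 13 tested genes were lower. The P1 ratio depends on the pseudocount, since both values are low, and was -1.78 with a pseudocount of 0.1 and -0.32 with 5. Cspg4 had -0.33 at P3 and -0.54 at P1, and its P1 ratio was -0.81 with a pseudocount of 0.1 and -0.22 with 5. Apart from Olig1, the shortfalls at P3 lay inside the middle 90% of all tested genes, which ran from -0.64 to 0.60 with the pseudocount of 1. At P1, with the same pseudocount, all but Nkx2-2 lay below the corresponding range of -0.36 to 0.30.

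Lineage genes outside the 5 were also mostly lower with Lin28a. Among precursor surface and matrix genes 10 of 13 at P3 and 7 of 8 measured at P1 were lower by any amount, with 1 past 2-fold at P3, Bcan (-1.11), and medians of -0.62 and -0.42. All 14 measured myelin and differentiating genes were lower at P3, 1 past 2-fold (median -0.52), and 5 of 7 at P1 (median -0.16). The 15 transcription factors were split, 8 lower at P3 and 9 at P1, with Sox10 at -0.45 and -0.80 and the repressor gene Zfp536 higher past 2-fold at P3 (1.07). Of the Hedgehog genes 6 of 7 measured at P3 were higher with Lin28a, none past 2-fold (Shh 0.99), and Foxa2 and Isl1 were higher past 2-fold (1.34 and 1.04). All 7 astrocyte markers at P3 and all 5 measured at P1 were lower with Lin28a, with medians of -0.67 and -0.37. Of 5 measured mural markers at P3, Acta2 was lower (105 FPKM with Lin28a, 211 FPKM with control) and Vtn higher (14.5 FPKM with Lin28a, 4.85 FPKM with control) past 2-fold, and of 6 fibroblast markers Dcn was higher (1.03). The part of these markers in the ratios of the 5 genes was not tested.

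Polysome RNA, the RNA carried on several ribosomes, was sequenced at P3 and gave a second comparison of Lin28a with control. Olig1 was at 121 RPKM in Lin28a and 172 RPKM in control, and Olig2 at 64.0 RPKM in Lin28a and 99.6 RPKM in control. Nkx2-2 was at 53.7 RPKM in Lin28a and 46.3 RPKM in control. Pdgfra was at 1.11 RPKM in Lin28a and 2.21 RPKM in control, and Cspg4 at 1.70 RPKM in Lin28a and 3.16 RPKM in control. Thus 4 of the 5 were lower in Lin28a and Nkx2-2 was higher.

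The log2 ratios were -0.50 for Olig1, -0.63 for Olig2, -0.60 for Pdgfra, -0.63 for Cspg4 and 0.21 for Nkx2-2, and 0 of the 5 passed 2-fold, where 0.122% of 12289 genes were lower past 2-fold and 0.952% higher. By any amount 37.2% of all genes were lower and 62.8% higher, beside 4 lower and 1 higher of these 5. The median of the 5 was -0.60, beside 0.06 over all genes. Pdgfra and Cspg4 have low polysome values, so their ratios depend on the pseudocount. With 0.1, Pdgfra had -0.93 and Cspg4 -0.86, and the median of the 5 was -0.64. With 5, Pdgfra had -0.24 and Cspg4 -0.29, and the median was -0.29. The same 4 genes were lower both in P1 RNA-seq and in P3 polysome RNA, as were 23.2% of 11879 genes. These comparisons share no library but are not known to be independent, since the labels give no replicate numbers.

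Among the lists in polysome RNA, 5 of 8 measured precursor surface and matrix genes were lower with Lin28a (median -0.43) and 0 past 2-fold, and 8 of 14 transcription factors were lower (median -0.04) while 2, Myt1 (1.57) and Id4 (1.13), were higher past 2-fold. All 7 measured Hedgehog genes were higher, 2 of them past 2-fold, with Shh at 9.59 RPKM in Lin28a and 3.19 RPKM in control. Of 6 measured myelin and differentiating genes 4 were higher with Lin28a and 2 lower (median 0.04), 0 of them past 2-fold. Of 6 measured astrocyte markers 5 were lower (median -0.44). Of 5 measured mural markers 3 were higher (Vtn 0.64, Rgs5 0.29 and Notch3 0.11) and 2 lower (Tagln -0.65 and Acta2 -0.64), with a median of 0.11. The part of these markers in the ratios of the 5 genes was not tested.

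How each assay was counted is not stated, and the lowest listed value was 4.8e-07 FPKM in RNA-seq but 0.00331 RPKM with Lin28a and 0.00204 RPKM with control in polysome RNA, so levels are set side by side only. Pdgfra and Cspg4 had polysome values of 1.11 to 3.16 RPKM beside P3 RNA-seq values of 11.2 to 15.9 FPKM, and Sox10 had 0.642 RPKM in Lin28a and 1.66 RPKM in control beside 54.6 and 74.8 FPKM in P3 Lin28a and control. Summed over the 17 myelin genes, polysome RNA held 24.0 RPKM in Lin28a and 27.3 RPKM in control, beside 1092 FPKM with Lin28a and 1681 FPKM with control in P3 RNA-seq. In P1 RNA-seq, Pdgfra and Cspg4 were at 0.458 to 2.31 FPKM, and Sox10 at 0.173 FPKM with Lin28a and 1.04 FPKM with control. The P1 sum of the myelin genes was 33.6 FPKM with Lin28a and 42.3 FPKM with control. The midbrain genes, in contrast, had polysome values closer to P3 than to P1 RNA-seq. Lmx1a was at 15.9 and 5.98 RPKM in Lin28a and control, Otx2 at 42.4 and 28.7 RPKM and En1 at 13.0 and 6.42 RPKM. The reason for the low polysome values of Pdgfra, Cspg4, Sox10 and the myelin genes was not tested. The labels place both polysome libraries at P3. Which gradient fractions were sequenced, and whether the cells were those of the RNA-seq libraries, is not stated.

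The change of the polysome to RNA ratio with Lin28a, taken as the polysome log2 ratio minus the P3 RNA-seq log2 ratio, was measured for the 3 factors, which were at 5 or more in all 4 libraries. It was 0.59 for Olig1, 0.40 for Nkx2-2 and -0.16 for Olig2, none past 2-fold, with a median of 0.07 over 7817 genes. Of these genes 0.358% were higher and 0.0512% lower past 2-fold, 28 against 4 genes, a split that became 20 against 13 with the median removed and 16 against 17 with upper quartile scaling. For Olig1, 327 of the genes stood higher. Pdgfra and Cspg4 were under 5 RPKM in polysome RNA and did not enter.

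The genes most like each of the 5 were found by the distance between log2 profiles over the 4 RNA-seq libraries, each profile centred on its own mean, among 13138 genes. A small distance means like ratios between libraries at any level. The nearest to Olig1 were Camk2b (distance 0.10), Slc6a11 (0.15) and Phospho1 (0.23), and among those nearest to Olig2 were Kcnd2 (0.06) and Immp2l (0.16). Nkx2-2 was nearest to Acap2, Pipox and Phka1, all at 0.03. For Pdgfra they were Pdk1 (0.18), Fgf11 (0.22) and Vegfa (0.30), and for Cspg4 they were P4ha1 (0.12), Acss2 (0.15) and Aldh1l1 (0.16).

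None of the 5 was among the 3 nearest genes of another. Seen from Olig1, its chromosomal neighbour Olig2 was number 383 in order of distance (0.82), and Cspg4 was number 192 (0.65). Seen from Pdgfra, Cspg4 was the closest of the 5, at number 56 (0.60), and Nkx2-2 the furthest, at number 1790 (2.17). With 4 libraries many genes lie close by, and the order describes these libraries alone.

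The small RNA libraries held microRNAs that act on the same lineage. In mouse, miR-219 and miR-338 promote the step by which precursors become oligodendrocytes, and the transcripts of Pdgfra and of Sox6, a factor that keeps precursors immature, are known targets of miR-219. The mature sequences, from RefSeq (GRCm38.p6), are shown because the seed at bases 2 to 8, in capitals, sets which transcripts a microRNA pairs with.
mmu-miR-219a-5p: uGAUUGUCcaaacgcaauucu
mmu-miR-338-3p: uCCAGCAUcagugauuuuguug
mmu-miR-219a-1-3p: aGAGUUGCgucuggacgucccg

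The seeds of the 3 differ. The first is encoded at 2 loci, by Mir219a-2 at chr2:29845689-29845709 and Mir219a-1 at chr17:34025052-34025072, the second by Mir338 at chr11:120014781-120014802, and the third by Mir219a-1 at chr17:34025010-34025031, all on the minus strand. A read of miR-219a-5p may be counted at both loci, which leaves ratios between libraries usable but may make its counting intervals too narrow.

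miR-219a-5p had 3040 counts with Lin28a and 5041 with control at P3, against 1966 with Lin28a and 1554 with control at P1. Scaled to the total of mature microRNA counts (CPM) this was 356 with Lin28a and 608 with control at P3, and 237 with Lin28a and 246 with control at P1. It had 1.50 times the CPM at P3 that it had at P1 in the Lin28a culture (95% interval 1.42 to 1.59) and 2.47 times in control (2.34 to 2.62). With Lin28a it stood at 0.585 times the control level at P3 (0.559 to 0.612) and 0.965 times at P1 (0.902 to 1.03). These intervals are exact conditional binomial ones and cover counting error only.

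miR-338-3p was at 188 CPM with Lin28a and 411 CPM with control at P3, against 53.4 CPM with Lin28a and 76.9 CPM with control at P1. Its passage ratio was 3.51 in the Lin28a culture (3.16 to 3.91) and 5.34 in control (4.86 to 5.89), and its Lin28a to control ratio was 0.457 at P3 (0.430 to 0.485) and 0.695 at P1 (0.610 to 0.792). miR-338-3p thus had the 4 libraries in the same order as all 5 genes, with P3 control highest and P1 Lin28a lowest. miR-219a-5p had this order too, but its P1 interval of 0.902 to 1.03 includes equal levels, so its order at P1 is undecided. miR-219a-1-3p, given below, had the reverse order. The share of all microRNAs with either order was not counted. Of all microRNAs at 10 CPM or more, 13% of 424 in the Lin28a culture and 27.1% of 428 in control were higher past 2-fold at P3, and of 414 microRNAs 12.1% at P3 and 4.35% at P1 were lower past 2-fold with Lin28a.

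The opposite strands, chosen after their values were seen, separated the 2 miR-219a loci. miR-219a-2-3p was at 657 CPM with Lin28a and 757 CPM with control at P3, against 74.7 CPM with Lin28a and 67.4 CPM with control at P1. miR-219a-1-3p was at 208 CPM with Lin28a and 163 CPM with control at P3, against 403 CPM with Lin28a and 259 CPM with control at P1. The first was 8.80 and 11.2 times as high at P3 as at P1 in Lin28a and control, and the other 0.516 and 0.631 times. The strand partner of miR-338-3p, miR-338-5p, was at 42.1 CPM with Lin28a and 185 CPM with control at P3, against 9.05 CPM with Lin28a and 9.33 CPM with control at P1. Sox6, the other known target, was at 25.7 FPKM in both P3 libraries, 5.53 FPKM in P1 Lin28a and 6.54 FPKM in P1 control, so Sox6, Pdgfra and miR-219a-5p were all higher at P3 in these libraries.

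**Figure D4:**
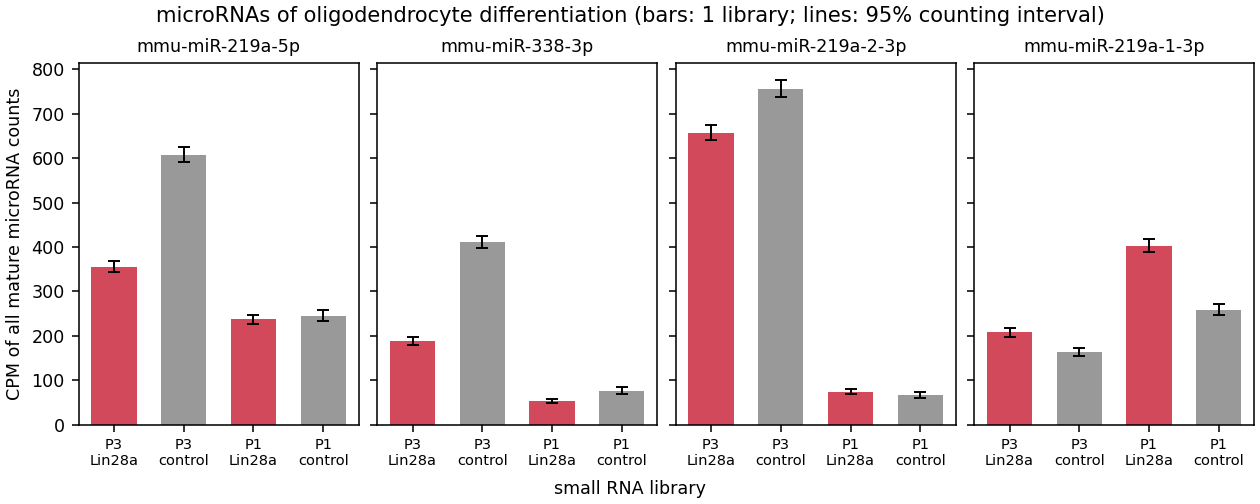
CPM of 4 microRNAs in the 4 small RNA libraries, Lin28a in red and control in grey, with lines for 95% counting intervals on single libraries. miR-338-3p and miR-219a-2-3p are higher at P3 than at P1 in both cultures, while miR-219a-1-3p is lower at P3, at 208 and 163 CPM against 403 and 259 CPM.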

How the data were processed

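RNA-seq and polysome-seq tables hold 1 value per RefSeq gene and small RNA tables hold counts per mature microRNA. The RNA-seq values are read as FPKM and the polysome values as RPKM, both computed by the authors before deposition; the file headers name no unit, which was read from the tools and the range of values. The submitters' processing notes name Bowtie 1.0.0, TopHat2 2.0.6, Cufflinks 2.1.1 and mm9 without saying which step used which, and mm9 coordinates are not printed. The microRNA counts were deposited raw, per the file headers, with library totals of 6322534 to 8542827.

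Genes were selected by symbol, and 17614 of 17919 accessions matched RefSeq for GRCm38. Ratios are differences of log2(value + 1) for genes at 1 or more in at least 1 library compared, or at 5 or more in all 4 libraries for the polysome to RNA ratio. A difference of 2-fold or more on that scale counts as past 2-fold. With 1 library per group no test was run. The ratio code was tested on simulated data. Named list genes are up to 4 per list with the largest absolute passage ratio in control, and others named, the label markers included, were chosen after their values were seen. The members, lists and comparisons were chosen with earlier results of these data known. One of the genes nearest to Olig2 in profile is not reported here. Alternatives were pseudocounts of 0.1 and 5, no filter, and median or upper quartile scaling. Versions were Python 3.11.15, scipy 1.17.1, matplotlib 3.10.9, pandas 2.3.3 and numpy 2.4.6.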

Additional observations from a re-analysis of the deposited data

Results flagged for a closer look

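Nkx2-2 was the 1 gene of the 5 whose Lin28a to control ratio had opposite signs in the 2 assays at P3, with a log2 ratio of 0.21 in polysome RNA and -0.19 in RNA-seq. The difference between the assays was not tested, since each group was 1 library, and both ratios were under 2-fold. With the median of all genes removed they were 0.15 in polysome RNA and -0.18 in RNA-seq.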

How the results depend on the processing

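No paired analysis was possible because each group held 1 library and the labels give no replicate numbers, and for the same reason no library could be left out. With a pseudocount of 0.1, the number of the 5 genes lower past 2-fold in Lin28a at P1 was 1 in place of 0 (Pdgfra), and the number higher past 2-fold in the passage change of Lin28a minus control was 1 in place of 0 (Pdgfra). With a pseudocount of 5, the median passage ratio of the 5 genes in control was 1.40 in place of 2.16. These pseudocounts weigh most on the low values of Pdgfra and Cspg4. No called ratio changed sign under any alternative run, but 2 medians under 2-fold did. The median of the 5 genes in the passage change, 0.21, was -0.03 with a pseudocount of 5. The median polysome to RNA ratio change, 0.40 over the 3 genes measured, was -0.16 with no filter, where Pdgfra and Cspg4 entered. Upper quartile scaling moved the median of all genes in the control passage comparison from -0.00 to -0.11, and the median of the 5 genes was then 2.05. A ratio was counted as moved where it crossed 2-fold or shifted by more than 1.5 times. Since depth is unknown outside the small RNA libraries, there is no counting interval for the 5 genes. Over all genes, pseudocounts of 0.1 and 5 in place of 1 gave 46 and 7 in place of 12 genes lower past 2-fold with Lin28a at P1, 333 and 61 in place of 171 at P3 and 61 and 3 in place of 15 in polysome RNA. With a pseudocount of 5, 548 in place of 1077 genes were higher past 2-fold at P3 in the Lin28a culture and 817 in place of 1496 in control.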
